A study of Arabidopsis thaliana with 8 samples.

Results

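The 44 genes described here act in mitosis and cytokinesis in Arabidopsis thaliana, and 43 of them were among the 18855 genes listed in the deposited expression table. They were chosen by identifier, as the A- and B-type cyclins, the CDKA and CDKB kinases with their CKS subunits, the aurora kinases, spindle checkpoint and CDC20 proteins, spindle microtubule proteins, the cytokinesis machinery, and chromosome proteins of dividing cells. The A-type cyclin CYCA2;1 was not among the listed genes and is not analysed here. RNA-seq was made from whole seedlings, 12 days old, of 3 genotypes that received no treatment. The 2 WT libraries carry no transgene. The 3 SPCHΔ49 libraries come from seedlings with 35S:SPCHΔ49, in which the constitutive 35S promoter of a plant virus drives a truncated SPEECHLESS (SPCH), the factor that starts the stomatal lineage. This truncation escapes the phosphorylation by MAP kinases that marks SPCH for breakdown, and the seedlings overproduce cells of the stomatal lineage, per the study's design text. The 3 SPCHΔ49 basl-2 libraries carry the same transgene in the basl-2 mutant, which is affected in BASL, a polarity protein of asymmetric division. No basl-2 library without the transgene was used here, and the sources used here do not say how many independent lines stand behind each genotype.

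Plant mitosis is entered when CDKA and the plant-specific B-type kinases pair with A- and B-type cyclins. MYB3R transcription factors switch most of these genes on in G2 and M phase by binding the mitosis-specific activator element, whose core is AACGG. Aurora kinases, the spindle checkpoint and CDC20 then time the separation of chromosomes. A cell plate, built by kinesins and the syntaxin KNOLLE inside the phragmoplast, divides the cell in place of a cleavage furrow. In young leaves the stomatal lineage is one of the last cell populations to divide: an asymmetric division makes the small meristemoid, and a symmetric division makes the pair of guard cells.

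The promoters come first. This shared element was not used to choose the genes, but MYB3R factors act through it on most genes of this kind. Its share among the members is therefore a description and not an independent result. In the window from 250 bases before to 50 bases after each annotated gene start, 29 of the 43 listed members (67.4%) held AACGG on either strand (CCGTT on the other), against 26.1% of the 18752 listed protein-coding genes. At least 2 copies were found in 17 members (39.5%), against 5.51% of all listed genes. Among the B-type cyclins, 8 of 9 held the core and 7 held it at least 2 times. Among the CDKs and CKS subunits only CDKB2;2 and CKS2, 2 of 7, held it. A second motif, TTTGAA on either strand, is known from mammals as the cell cycle genes homology region. It stood in 28 members (65.1%) against 43.5% of all. The motifs were searched separately, and any overlap between them was allowed. A match is only a run of letters and shows no binding.

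The 120 bases before the gene start are printed for 8 members, from the TAIR10.1 assembly with RefSeq's annotation, matched by locus identifier, since no source used here gives the build of the deposited files. The windows were chr4:17624309-17624428 on the minus strand for CYCB1;1, chr5:1861704-1861823 on the minus strand for CYCB1;2 and chr3:3627274-3627393 on the minus strand for CYCB1;3. Those of other families were chr1:7137829-7137948 on the minus strand for CYCB2;3, chr1:951851-951970 on the minus strand for TPX2 and chr3:8519016-8519135 on the plus strand for PAKRP1L. The last 2 were chr3:18071334-18071453 on the plus strand for CDKA;1 and chr2:11911803-11911922 on the minus strand for CKS1. Letters run 5′ to 3′ along the gene's strand, and capitals mark AACGG or CCGTT. The first 6 belong to members that were lower in SPCHΔ49 basl-2 than in both other genotypes, and are shown to let the spacing of the copies be seen. CDKA;1 and CKS1 passed the threshold in no comparison and are shown as windows without the core.
CYCB1;1: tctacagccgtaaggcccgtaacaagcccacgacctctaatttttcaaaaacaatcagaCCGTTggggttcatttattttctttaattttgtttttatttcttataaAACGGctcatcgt
CYCB1;2: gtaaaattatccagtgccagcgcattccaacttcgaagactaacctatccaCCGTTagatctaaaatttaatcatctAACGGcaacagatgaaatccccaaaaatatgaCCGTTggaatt
CYCB1;3: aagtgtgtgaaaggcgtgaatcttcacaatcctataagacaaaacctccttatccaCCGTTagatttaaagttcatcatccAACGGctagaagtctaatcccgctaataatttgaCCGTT
CYCB2;3: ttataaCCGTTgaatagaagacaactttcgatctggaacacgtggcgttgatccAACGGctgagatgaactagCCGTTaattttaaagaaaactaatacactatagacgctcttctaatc
TPX2: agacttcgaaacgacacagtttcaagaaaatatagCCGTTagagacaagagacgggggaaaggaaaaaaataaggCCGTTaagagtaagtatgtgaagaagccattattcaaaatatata
PAKRP1L: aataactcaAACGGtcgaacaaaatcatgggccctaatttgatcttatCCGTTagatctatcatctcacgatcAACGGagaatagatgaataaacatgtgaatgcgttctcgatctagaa
CDKA;1: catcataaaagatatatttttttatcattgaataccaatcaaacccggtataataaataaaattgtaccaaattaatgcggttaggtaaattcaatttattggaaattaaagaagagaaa
CKS1: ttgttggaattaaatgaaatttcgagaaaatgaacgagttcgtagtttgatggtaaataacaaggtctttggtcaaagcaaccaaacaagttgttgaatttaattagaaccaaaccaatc

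**Figure D1:**
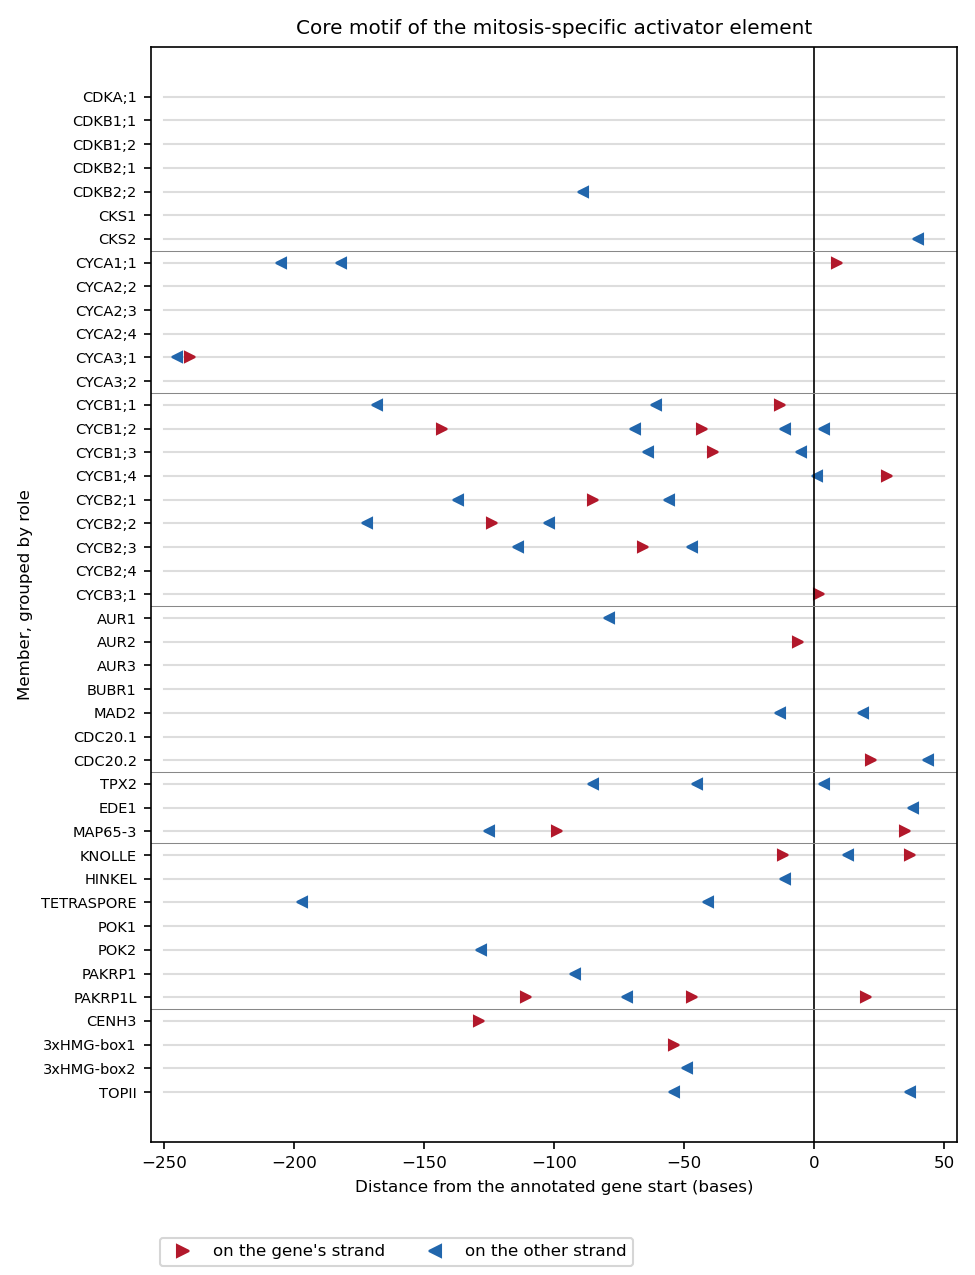
Position of the AACGG core in the promoters of the 43 listed members, grouped by role. The horizontal axis is the distance from the annotated gene start in bases, and each triangle is 1 copy, pointing right on the gene's strand and left on the other; 8 of the 9 B-type cyclins carry at least 1 copy, while CDKA;1, CKS1 and 3 of the 4 B-type kinases show none.

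Expression values are called signal here: the files name them TPM, which is a per-length measure, but their totals ran from 852202 to 1075380 per library, so the authors rescaled them by a step that no source used here states. No counts were used, so the depth of each library is unknown. SPCH itself read 8.2 and 5.65 (WT), 2628, 2357 and 2488 (SPCHΔ49), and 397, 338 and 487 (SPCHΔ49 basl-2), so every library labelled with the transgene was high in SPCH, and the mean of SPCHΔ49 basl-2 was 6.12 times lower than that of SPCHΔ49. BASL read 3.34 and 3.52 (WT), 59.7, 58.1 and 35.3 (SPCHΔ49), and 2.1, 3.23 and 2.9 (SPCHΔ49 basl-2). Its log2 fold change in SPCHΔ49 basl-2 was -0.26 ± 0.25 against WT (adjusted p = 0.451) and -3.77 ± 0.22 against SPCHΔ49 (adjusted p = 0.00152), so its level did not set the basl-2 libraries apart from WT, and the mutation is taken from the labels. The basl-2 mutation and the lower transgene level therefore cannot be told apart in any comparison of SPCHΔ49 basl-2. Markers of differentiated root tissue were lower in both overexpressors: the summed signal of 8 genes was 172.5 to 187.3 in WT, 4.88 to 6.40 in SPCHΔ49 and 5.94 to 9.75 in SPCHΔ49 basl-2, and EXPA18 is listed at 0 in each of the 6 overexpressor libraries. EXPA7 read 8.11 and 9.40 in WT, is listed at 0 in 5 overexpressor libraries and read 0.0725 in the other. Most of the remaining sum was PHO1, a phosphate exporter of the root stele, which had means of 25.6 ± 0.705 in WT, 5.2 ± 0.691 in SPCHΔ49, and 6.69 ± 1.17 in SPCHΔ49 basl-2 (SD, n = 2, 3 and 3). All 8 were lower than WT in both overexpressors by limma's test. Between the overexpressors 0 of 8 differed, with 0 at an unadjusted p under 0.05. Every listed gene read at least 1 in all libraries of some genotype. All of these markers but PHO1 had means under 1 in both overexpressors. They could thus be listed only through WT, which favours their fall. At such low signal they could hardly differ between the overexpressors. PHO1 had log2 fold changes of -2.11 ± 0.16 and -1.80 ± 0.16 against WT, and 0.31 ± 0.15 between the overexpressors (adjusted p = 0.282). Nothing in the labels states that the replicates came from separate sowings, and p-values then describe only how these particular libraries spread. In whole seedlings, fewer dividing cells and less RNA per dividing cell cannot be told apart.

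The summed signal of the 43 members was 401.2 and 518.7 (WT), 548.9, 655.9 and 655.9 (SPCHΔ49), and 271.7, 291.8 and 311.4 (SPCHΔ49 basl-2). The 3 genotypes did not overlap. The basl-2 mean was 63.4% of WT and 47.0% of SPCHΔ49, while the SPCHΔ49 mean was 135% of WT. For 32 of the 43 members the mean was highest in SPCHΔ49 and lowest in SPCHΔ49 basl-2. In 35 members every SPCHΔ49 basl-2 library read below every library of both other genotypes. The share of all genes with either pattern was not counted, and the shares of all genes below are for single comparisons.

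**Figure D2:**
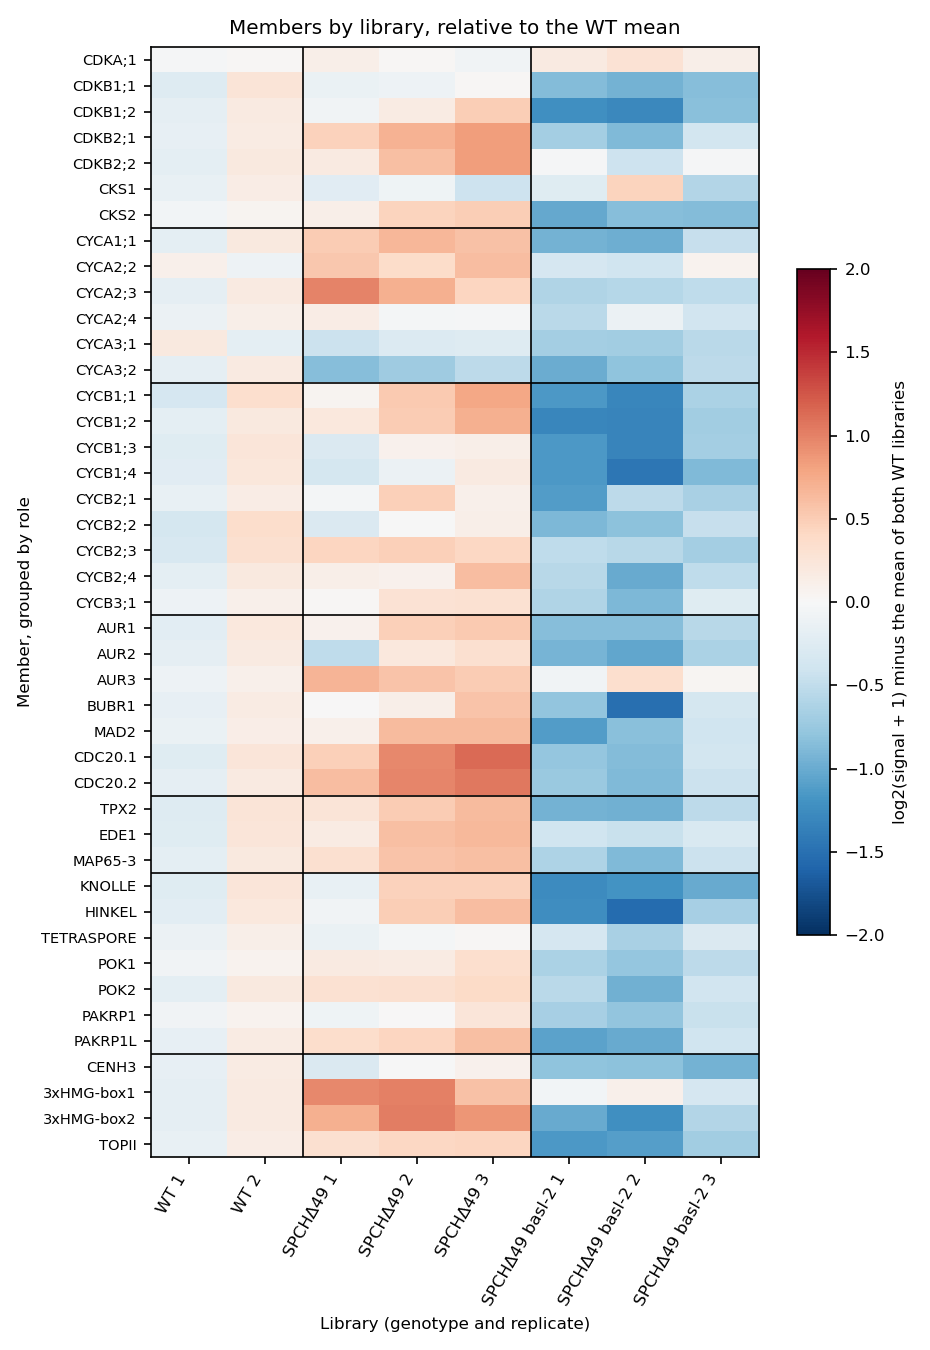
Signal of each listed member in each of the 8 libraries, as log2(signal + 1) minus the mean of both WT libraries (colour, red above and blue below). Rows are members grouped by role and columns are libraries. The 3 SPCHΔ49 basl-2 columns are blue in nearly every row. The SPCHΔ49 columns are red in most rows, and all 3 lie below the WT mean in CYCA3;1, CYCA3;2 and CKS1.

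Differences were tested with limma on log2(signal + 1) across all 18855 listed genes, with Benjamini-Hochberg adjustment and a threshold of 0.05. Fold changes below are log2 differences of signal + 1 with their standard error, a scale on which changes at low signal appear too small. Between SPCHΔ49 and WT, 7 members rose and 1 fell, where 9.9% of all genes rose and 17.3% fell (27.2% called in either direction). The median log2 fold change of the members was 0.35, beside -0.01 over all genes. The 2 WT and 3 SPCHΔ49 libraries did not overlap in 19 members, 17 with SPCHΔ49 above and 2 with it below, where 60.9% of all genes did not overlap (28.2% above, 32.7% below). The members that rose were the kinase CDKB2;1, the cyclin CYCA2;3, the kinase AUR3, both CDC20 genes and both 3xHMG-box genes, and CYCA3;2 fell. These 8 calls rest on few libraries: leaving out WT replicate 1 gave 0 calls, WT replicate 2 gave 1, SPCHΔ49 replicate 2 gave 0, and SPCHΔ49 replicate 1 or SPCHΔ49 basl-2 replicate 1 gave 5 each. With quantile normalization the count was 17, of which 16 were higher.

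In SPCHΔ49 basl-2 against WT, 28 members fell and 0 rose, where 21.6% of all genes fell and 12.6% rose (34.3% called in either direction). Without an adjustment, 35 members passed a p of 0.05, of which 0 were higher. The median log2 fold change was -0.73, beside -0.06 over all genes. In 36 members the SPCHΔ49 basl-2 libraries all read below WT and in 1, CDKA;1, they all read above, where 35.5% and 26.5% of all genes did so (62% in either direction). The count of 28 depended on single libraries: it dropped to 9 when WT replicate 1 was left out, 2 for WT replicate 2, 11 for SPCHΔ49 basl-2 replicate 1 and 16 for SPCHΔ49 basl-2 replicate 2. It was 15 with quantile normalization, 17 when only the 2 groups entered the fit, and 15 of the 24 members with a mean signal of at least 5, and 0 members rose under any of these settings. Rescaling the libraries without SPCH, organelle and abundant genes, or without genes high only in WT, ended 7 of the calls each, among them AUR2, MAD2, MAP65-3, CDC20.2, CDKB2;1 and POK2 under both. Their log2 fold changes stayed near those given below: AUR2 was then at -0.82 and -0.91, MAD2 at -0.74 and -0.83, MAP65-3 at -0.60 and -0.68, CDC20.2 at -0.64 and -0.73, CDKB2;1 at -0.60 and -0.70, and POK2 at -0.59 and -0.66, with adjusted p from 0.0512 to 0.0721.

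In SPCHΔ49 basl-2 against SPCHΔ49, which share the transgene, 31 members fell and 0 rose, where 3.36% of all genes fell and 2.05% rose (5.41% called in either direction). Without an adjustment, 40 members passed a p of 0.05, of which 0 were higher. The median log2 fold change was -1.02, beside -0.03 over all genes. All SPCHΔ49 basl-2 libraries read below all SPCHΔ49 libraries in 40 members and above them in 1, where 15% and 10.7% of all genes did so (25.7% in either direction). A total of 25 members fell against both WT and SPCHΔ49, and the share of all genes that did so was not counted. The count of 31 was 4 without SPCHΔ49 replicate 2, 14 without SPCHΔ49 replicate 3, 5 without SPCHΔ49 basl-2 replicate 1 and 13 without SPCHΔ49 basl-2 replicate 2. It was 20 when only the 2 groups entered the fit and 17 of the 24 members with a mean of at least 5. Quantile normalization ended 8 of the calls, those of 3xHMG-box1, CDKB1;1, CENH3, CYCA2;2, CYCB2;1, CYCB2;4, EDE1 and PAKRP1.

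**Figure D3:**
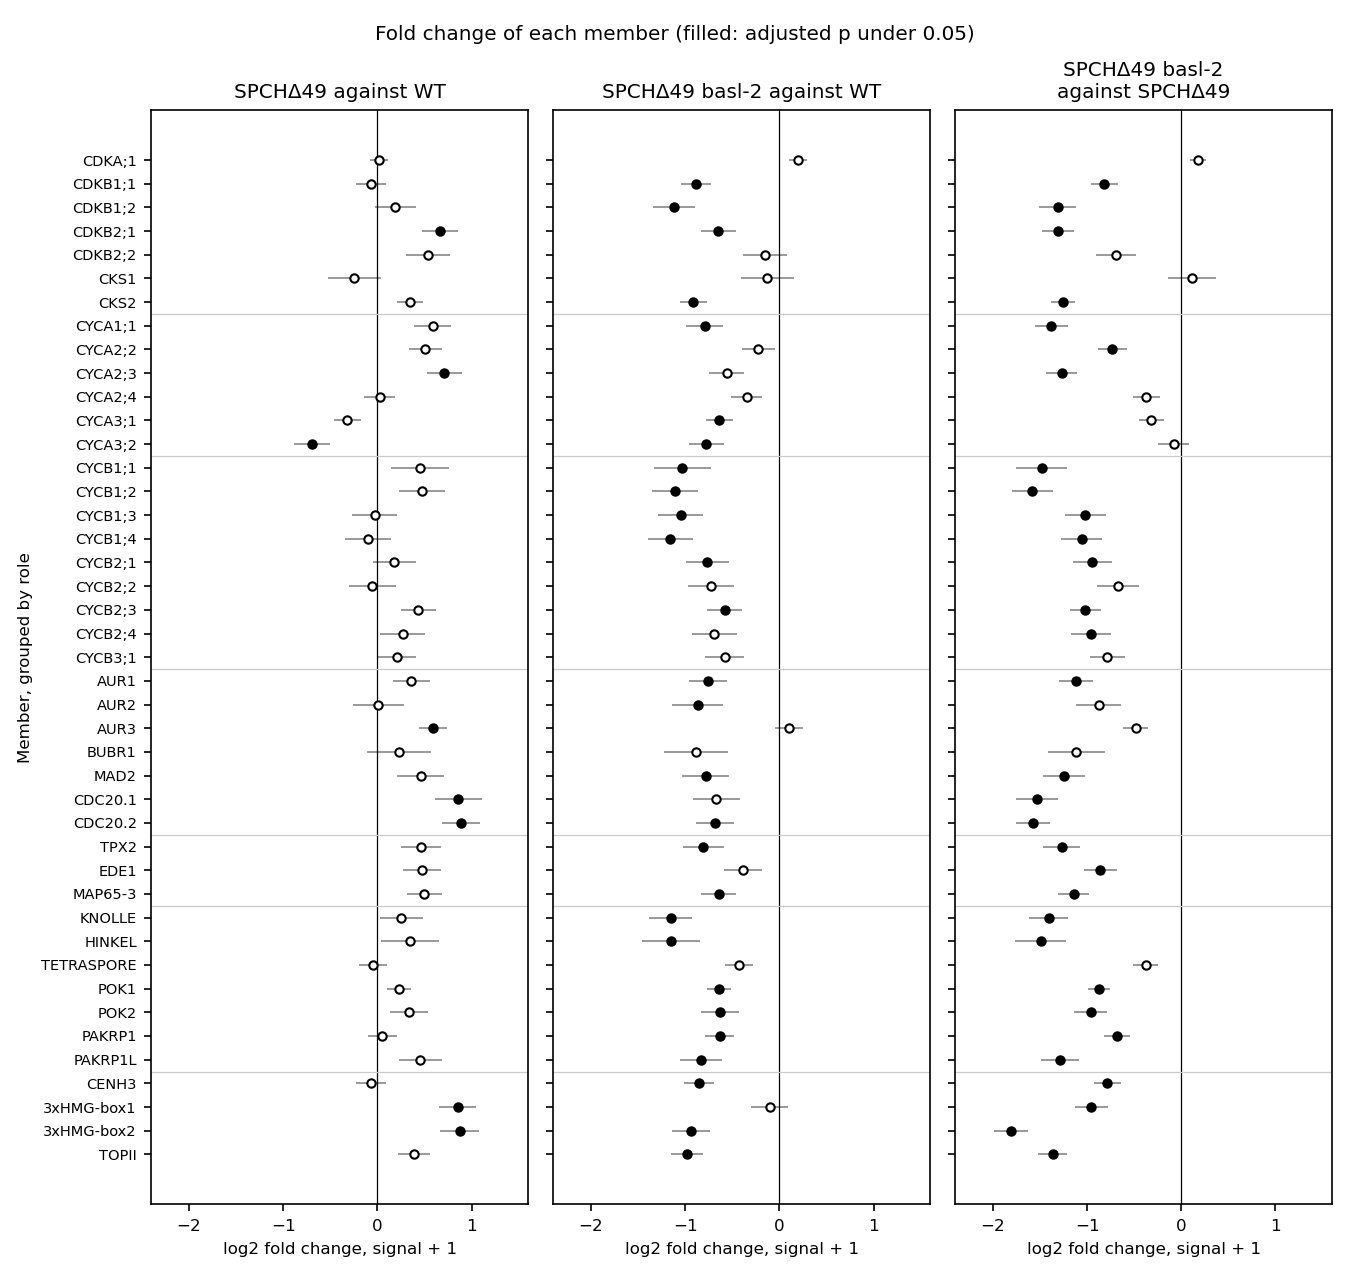
Log2 fold change of signal + 1 of each listed member in the 3 comparisons, with bars of 1 standard error; filled points passed an adjusted p of 0.05 in limma's test. In the right panel 41 of 43 points lie below 0, and CDKA;1 and CKS1 lie just above it.

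Every listed gene read at least 1 in all libraries of at least 1 genotype, so the list is a filtered one. All 43 listed members read at least 1 in every WT and every SPCHΔ49 library. In every SPCHΔ49 basl-2 library 34 of the 43 did so, a smaller share than the 88.6% of all genes that did. The 9 that did not, CDKB1;2, CYCA2;2, CYCA3;1, CYCB2;1, CYCB3;1, BUBR1, EDE1, POK1 and PAKRP1, entered the table through the genotypes where they were higher. Of these 9, 5 fell against WT and 6 against SPCHΔ49, which the way they were listed favours. No member was listed at 0 in any library.

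Among the cyclin-dependent kinases, CDKA;1 passed in no comparison, and 3 of the 4 B-type kinases fell in SPCHΔ49 basl-2. CDKA;1 (AT3G48750), the kinase used throughout the cell cycle, read 36.3 and 37.7 (WT), 40.04, 37.6 and 35.1 (SPCHΔ49), and 42.1, 45.6 and 40.1 (SPCHΔ49 basl-2). Its libraries lay within a narrow range, those of SPCHΔ49 basl-2 stood just above the rest, with log2 fold changes of 0.02 ± 0.10, 0.20 ± 0.10 and 0.18 ± 0.09 in the order used above. The B-type kinases act in G2 and M phase and have no counterpart in animals. CDKB1;1 (AT3G54180), which is needed for the last division of the stomatal lineage, read 4.31 and 6.52 (WT), 4.78, 4.87 and 5.46 (SPCHΔ49), and 2.46, 2.28 and 2.51 (SPCHΔ49 basl-2). All SPCHΔ49 basl-2 libraries were below all others, with log2 fold changes of -0.89 ± 0.16 against WT (adjusted p = 0.00646) and -0.82 ± 0.14 against SPCHΔ49 (adjusted p = 0.0257) in limma's test. CDKB1;2 (AT2G38620) had mean signals of 3.87 ± 0.831 in WT, 4.6 ± 1.11 in SPCHΔ49, and 1.25 ± 0.39 in SPCHΔ49 basl-2 (SD, n = 2, 3 and 3). It fell the most among these kinases against WT, with a log2 fold change of -1.12 ± 0.22 (adjusted p = 0.00856), and with -1.31 ± 0.20 against SPCHΔ49 (adjusted p = 0.015). CDKB2;1 (AT1G76540), a kinase of the shoot meristem, separated the genotypes with signals of 18.3 and 23.01 (WT), 28.5, 33.98 and 37.3 (SPCHΔ49), and 12.4, 10.6 and 15.6 (SPCHΔ49 basl-2). It was one of 3 members that passed in all 3 comparisons: it rose by 0.66 ± 0.19 in SPCHΔ49 against WT (adjusted p = 0.0384), and its log2 fold changes in SPCHΔ49 basl-2 were -0.65 ± 0.19 against WT (adjusted p = 0.0354) and -1.31 ± 0.17 against SPCHΔ49 (adjusted p = 0.00928). Its close relative CDKB2;2 (AT1G20930) read 6.03 and 8.12 (WT), 8.05, 11.1 and 13.4 (SPCHΔ49), and 6.87, 5.02 and 6.85 (SPCHΔ49 basl-2). WT and SPCHΔ49 basl-2 overlapped, and neither the log2 fold change of 0.54 ± 0.23 for SPCHΔ49 against WT (adjusted p = 0.127) nor that of -0.69 ± 0.21 between the overexpressors (adjusted p = 0.107) passed.

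The CKS proteins are small subunits that dock CDK complexes onto their substrates, and the 2 genes stand next to each other on chromosome 2. CKS2 (AT2G27970) read 13.7 and 14.8 (WT), 15.5, 19.7 and 20.4 (SPCHΔ49), and 6.54, 7.5 and 7.33 (SPCHΔ49 basl-2), and the SPCHΔ49 basl-2 libraries were below all others. Its log2 fold changes were -0.91 ± 0.14 against WT (adjusted p = 0.00323) and -1.26 ± 0.13 against SPCHΔ49 (adjusted p = 0.0051), and both passed in all 19 settings tried. CKS1 (AT2G27960) read 43.6 and 53.4 (WT), 40.9, 45.3 and 36.1 (SPCHΔ49), and 40.6, 66.2 and 31.8 (SPCHΔ49 basl-2). Its genotypes overlapped and its lowest and highest values both came from SPCHΔ49 basl-2, so no change was resolved. Of the 7 CDKs and CKS subunits, 4 fell in SPCHΔ49 basl-2 against WT and 4 against SPCHΔ49.

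Among the A-type cyclins, 3 of 6 fell in SPCHΔ49 basl-2 against WT and 3 against SPCHΔ49, though not the same 3. CYCA1;1 (AT1G44110), a cyclin of G2 and M phase, read 5.36 and 7.37 (WT), 9.43, 10.5 and 9.95 (SPCHΔ49), and 2.79, 2.71 and 4.3 (SPCHΔ49 basl-2). The genotypes did not overlap: the log2 fold change was 0.59 ± 0.20 in SPCHΔ49 against WT, which did not pass (adjusted p = 0.0644), -0.79 ± 0.20 in SPCHΔ49 basl-2 against WT (adjusted p = 0.0199) and -1.38 ± 0.18 against SPCHΔ49 (adjusted p = 0.00892). The CYCA2 cyclins pair with CDKB1 kinases and act in the divisions of the stomatal lineage. CYCA2;3 (AT1G15570), which also holds back endoreduplication, read 9.74 and 12.9 (WT), 23.2, 19.1 and 15.4 (SPCHΔ49), and 7.06, 7.22 and 7.63 (SPCHΔ49 basl-2). It rose in SPCHΔ49 by 0.71 ± 0.19 (adjusted p = 0.0284), was lower in SPCHΔ49 basl-2 than in SPCHΔ49 with a log2 fold change of -1.27 ± 0.17 (adjusted p = 0.00966), and missed the threshold against WT at -0.56 ± 0.19 (adjusted p = 0.0526). CYCA2;2 (AT5G11300) was near the floor of the table at 1.42 and 1.11 (WT), 2.29, 1.91 and 2.46 (SPCHΔ49), and 0.781, 0.712 and 1.37 (SPCHΔ49 basl-2). WT and SPCHΔ49 basl-2 overlapped, the log2 fold change of 0.51 ± 0.17 in SPCHΔ49 against WT did not pass (adjusted p = 0.0691), and that of -0.73 ± 0.16 between the overexpressors did (adjusted p = 0.0448). CYCA2;4 (AT1G80370) had mean signals of 5.51 ± 0.791 in WT, 5.61 ± 0.472 in SPCHΔ49, and 4.13 ± 0.788 in SPCHΔ49 basl-2 (SD, n = 2, 3 and 3) and passed in no comparison.

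The CYCA3 cyclins are expressed earlier, around S phase, and both read lower in every overexpressor library than in WT. CYCA3;2 (AT1G47210) read 9.58 and 12.6 (WT), 5.66, 6.28 and 7.38 (SPCHΔ49), and 5.03, 5.85 and 7.32 (SPCHΔ49 basl-2). Every overexpressor library was below both WT libraries, and the overexpressors overlapped each other. Its log2 fold change was -0.69 ± 0.19 in SPCHΔ49 (adjusted p = 0.032) and -0.77 ± 0.19 in SPCHΔ49 basl-2 (adjusted p = 0.0184), both against the same WT libraries. The call in SPCHΔ49 was lost when the libraries were rescaled without SPCH, organelle and abundant genes (adjusted p = 0.0625) or without genes high only in WT (adjusted p = 0.103). CYCA3;1 (AT5G43080) read 2.32 and 1.55 (WT), 1.16, 1.41 and 1.45 (SPCHΔ49), and 0.821, 0.799 and 1.004 (SPCHΔ49 basl-2), with all overexpressor libraries below WT. It fell in SPCHΔ49 basl-2 against WT with a log2 fold change of -0.64 ± 0.15 (adjusted p = 0.0151), a call that quantile normalization ended (adjusted p = 0.776).

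The B-type cyclins bring CDKs to full activity at the entry into mitosis, and all 9 read lower in every SPCHΔ49 basl-2 library than in any library of the other genotypes. The share of all genes below both was not counted. In single comparisons, 35.5% of all genes lay wholly below WT and 15% wholly below SPCHΔ49. Against WT 6 of 9 passed and against SPCHΔ49 7 of 9, while 0 of 9 passed in SPCHΔ49 against WT, with 0 at an unadjusted p under 0.05. Their summed signal was 42.3 and 62.9 (WT), 54.6, 66.2 and 75.2 (SPCHΔ49), and 22.5, 20.4 and 29.8 (SPCHΔ49 basl-2). CYCB1;1 (AT4G37490), whose promoter is the common reporter of cells in G2 and M phase and which also responds to DNA damage, read 3.46 and 6.07 (WT), 4.86, 7.11 and 8.56 (SPCHΔ49), and 1.54, 1.28 and 2.6 (SPCHΔ49 basl-2). WT and SPCHΔ49 overlapped, and the log2 fold change of SPCHΔ49 basl-2 was -1.03 ± 0.30 against WT (adjusted p = 0.0368) and -1.48 ± 0.27 against SPCHΔ49 (adjusted p = 0.0287). CYCB1;2 (AT5G06150) read 12.9 and 17.2 (WT), 17.4, 21.5 and 25.1 (SPCHΔ49), and 5.45, 5.34 and 8.81 (SPCHΔ49 basl-2), and its 3 genotypes did not overlap. Its log2 fold changes were -1.11 ± 0.25 against WT (adjusted p = 0.0135) and -1.58 ± 0.22 against SPCHΔ49 (adjusted p = 0.0116). This cyclin has 3 copies of the AACGG core in the 120 bases printed above, as has CYCB1;3 at nearly the same spacing. CYCB1;3 (AT3G11520) read 3.28 and 4.93 (WT), 3.13, 4.35 and 4.46 (SPCHΔ49), and 1.27, 1.03 and 2.14 (SPCHΔ49 basl-2), and WT and SPCHΔ49 overlapped. It fell in SPCHΔ49 basl-2 with a log2 fold change of -1.05 ± 0.24 against WT (adjusted p = 0.0155) and -1.02 ± 0.22 against SPCHΔ49 (adjusted p = 0.0447). CYCB1;4 (AT2G26760) had means of 6.64 ± 1.72 in WT, 6.12 ± 1.35 in SPCHΔ49, and 2.42 ± 0.671 in SPCHΔ49 basl-2 (SD, n = 2, 3 and 3) and log2 fold changes of -1.16 ± 0.24 (adjusted p = 0.0103) and -1.06 ± 0.21 (adjusted p = 0.0393).

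Of the 4 CYCB2 cyclins, 3 passed against SPCHΔ49 and 2 against WT. CYCB2;3 (AT1G20610) read 6.49 and 10.8 (WT), 11.6, 12.1 and 11.5 (SPCHΔ49), and 5.6, 5.41 and 4.85 (SPCHΔ49 basl-2). All SPCHΔ49 libraries were above WT and all SPCHΔ49 basl-2 libraries below it, and the log2 fold changes of SPCHΔ49 basl-2 were -0.58 ± 0.19 against WT (adjusted p = 0.0489) and -1.02 ± 0.17 against SPCHΔ49 (adjusted p = 0.0202). CYCB2;1 (AT2G17620), at means of 1.95 ± 0.414 in WT, 2.37 ± 0.637 in SPCHΔ49, and 0.756 ± 0.36 in SPCHΔ49 basl-2 (SD, n = 2, 3 and 3), passed with -0.76 ± 0.23 against WT (adjusted p = 0.0389) and -0.94 ± 0.21 against SPCHΔ49 (adjusted p = 0.0464), and quantile normalization ended the call against WT (adjusted p = 0.541). CYCB2;4 (AT1G76310) had means of 5.95 ± 1.35 in WT, 7.43 ± 1.83 in SPCHΔ49, and 3.31 ± 0.787 in SPCHΔ49 basl-2. It passed against SPCHΔ49 at -0.96 ± 0.21 (adjusted p = 0.0485) and missed against WT at -0.69 ± 0.24 (adjusted p = 0.06004). CYCB2;2 (AT4G35620) had means of 4.06 ± 1.73 in WT, 3.75 ± 0.675 in SPCHΔ49, and 1.99 ± 0.508 in SPCHΔ49 basl-2 and passed against neither, at -0.73 ± 0.25 (adjusted p = 0.0592) and -0.67 ± 0.22 (adjusted p = 0.136). CYCB3;1 (AT1G16330), the only B3-type cyclin of the group, was low throughout at 1.26 and 1.62 (WT), 1.47, 1.98 and 2.003 (SPCHΔ49), and 0.604, 0.303 and 1.06 (SPCHΔ49 basl-2). Its libraries did not overlap between SPCHΔ49 basl-2 and the others, yet log2 fold changes of -0.58 ± 0.21 (adjusted p = 0.0672) and -0.79 ± 0.19 (adjusted p = 0.057) did not pass, and the first turned to 0.13 with quantile normalization.

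**Figure D4:**
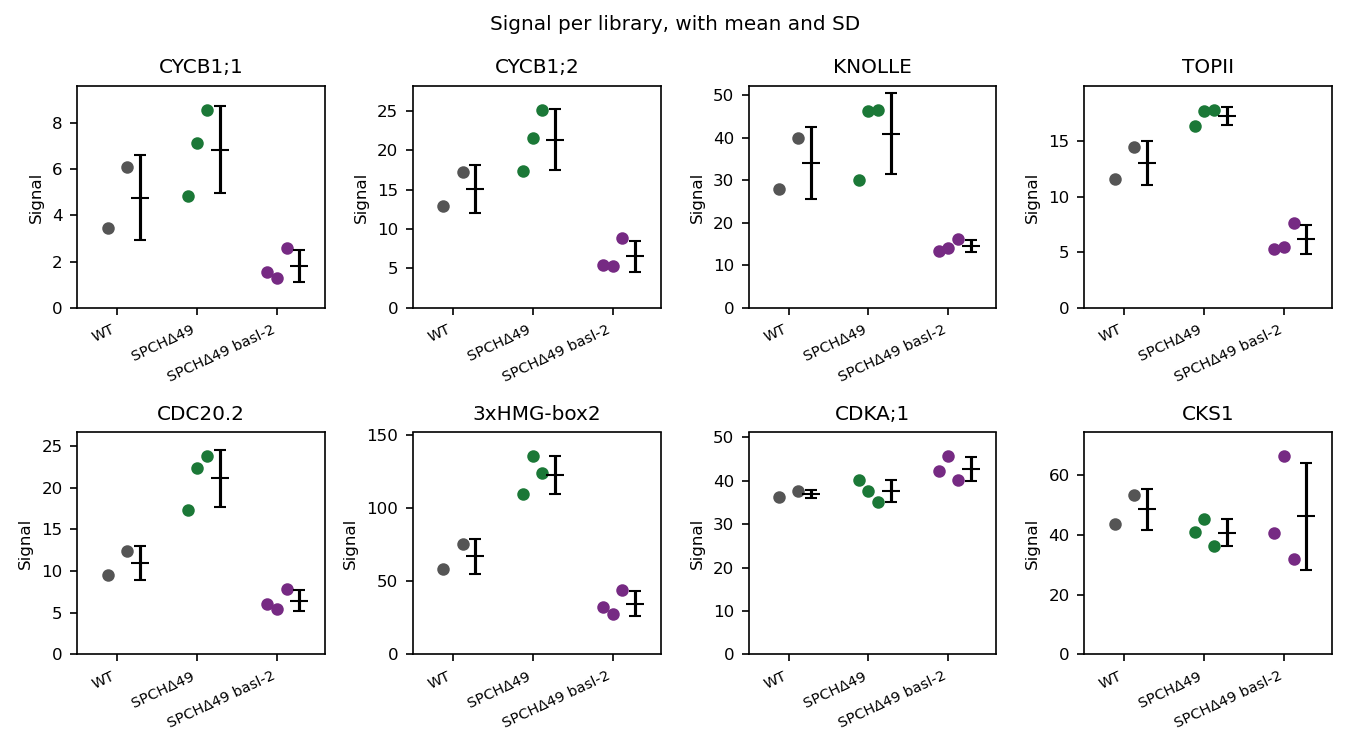
Signal of 8 members in each library (points, coloured by genotype) with the mean and SD beside them (n = 2, 3 and 3); axes start at 0. The 6 members in the first panels have all SPCHΔ49 basl-2 libraries below both other genotypes, whereas CDKA;1 stays between 35.1 and 45.6 and CKS1 overlaps across genotypes.

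The 3 aurora kinases are described in turn. AUR1 (AT4G32830) and AUR2 (AT2G25880) sit on the spindle and the growing cell plate and orient divisions. AUR1 read 5.44 and 7.68 (WT), 6.92, 9.4 and 9.75 (SPCHΔ49), and 3.15, 3.13 and 4.06 (SPCHΔ49 basl-2), and its log2 fold changes in SPCHΔ49 basl-2 were -0.75 ± 0.20 against WT (adjusted p = 0.0251) and -1.12 ± 0.18 against SPCHΔ49 (adjusted p = 0.0181). AUR2 read 7.005 and 9.23 (WT), 5.37, 9.48 and 10.3 (SPCHΔ49), and 3.76, 3.41 and 4.82 (SPCHΔ49 basl-2), with all SPCHΔ49 basl-2 libraries lowest. It fell against WT with a log2 fold change of -0.87 ± 0.27 (adjusted p = 0.0435) but missed the threshold against SPCHΔ49 at -0.88 ± 0.24 (adjusted p = 0.0861). AUR3 (AT2G45490), the aurora kinase of centromeres, read 3.1 and 3.69 (WT), 6.03, 5.54 and 5.26 (SPCHΔ49), and 3.19, 4.52 and 3.53 (SPCHΔ49 basl-2). SPCHΔ49 stood above WT, where it rose by 0.59 ± 0.15 (adjusted p = 0.0267), whereas SPCHΔ49 basl-2 overlapped WT, with a log2 fold change of 0.10 ± 0.15 (adjusted p = 0.622).

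The spindle checkpoint holds back anaphase until chromosomes are attached, and CDC20 activates the anaphase-promoting complex once it is released. MAD2 (AT3G25980) read 11.9 and 14.6 (WT), 14.2, 20.96 and 21.1 (SPCHΔ49), and 5.54, 6.94 and 9.71 (SPCHΔ49 basl-2). SPCHΔ49 overlapped WT and SPCHΔ49 basl-2 was below both, with log2 fold changes of -0.78 ± 0.25 (adjusted p = 0.0478) and -1.24 ± 0.22 (adjusted p = 0.0271). BUBR1 (AT2G33560) read 3.53 and 4.71 (WT), 4.11, 4.52 and 6.52 (SPCHΔ49), and 1.94, 0.78 and 2.99 (SPCHΔ49 basl-2). Its SPCHΔ49 basl-2 libraries were lowest but spread widely, and -0.88 ± 0.34 against WT (adjusted p = 0.0824) and -1.12 ± 0.30 against SPCHΔ49 (adjusted p = 0.0843) did not pass. CDC20.1 (AT4G33270) and CDC20.2 (AT4G33260) lie side by side on chromosome 4, and 37.3% and 40.2% of their 31-base words are shared, most of them with each other, so reads could be split between them. CDC20.2 read 9.49 and 12.4 (WT), 17.3, 22.4 and 23.8 (SPCHΔ49), and 6.09, 5.4 and 7.85 (SPCHΔ49 basl-2) and CDC20.1 15.1 and 21.4 (WT), 25.4, 36.1 and 40.7 (SPCHΔ49), and 10.2, 9.37 and 13.7 (SPCHΔ49 basl-2). In both genes the 3 genotypes did not overlap. CDC20.2 passed in all 3 comparisons, rising by 0.89 ± 0.20 in SPCHΔ49 (adjusted p = 0.0171), with -0.68 ± 0.20 in SPCHΔ49 basl-2 against WT (adjusted p = 0.036) and -1.57 ± 0.18 against SPCHΔ49 (adjusted p = 0.00683). CDC20.1 rose by 0.86 ± 0.25 in SPCHΔ49 (adjusted p = 0.0408), was lower in SPCHΔ49 basl-2 than in SPCHΔ49 with a log2 fold change of -1.53 ± 0.22 (adjusted p = 0.0137), and did not pass against WT at -0.67 ± 0.25 (adjusted p = 0.0748). Of these 7 kinases, checkpoint and CDC20 genes, 3 rose in SPCHΔ49, and 4 fell in SPCHΔ49 basl-2 against each of the other genotypes.

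All 3 spindle and microtubule proteins fell in SPCHΔ49 basl-2 against SPCHΔ49, and 2 of them against WT. TPX2 (AT1G03780), which starts spindle assembly and activates aurora kinase, read 5.12 and 7.69 (WT), 7.68, 9.39 and 10.3 (SPCHΔ49), and 2.79, 2.75 and 4.09 (SPCHΔ49 basl-2). Its log2 fold changes were -0.81 ± 0.22 against WT (adjusted p = 0.0266) and -1.27 ± 0.19 against SPCHΔ49 (adjusted p = 0.0156). MAP65-3 (AT5G51600), which cross-links the microtubules of the phragmoplast midzone, read 5.77 and 7.88 (WT), 8.74, 10.5 and 10.8 (SPCHΔ49), and 4.08, 3.21 and 4.75 (SPCHΔ49 basl-2). The 3 genotypes did not overlap; the increase of 0.50 ± 0.19 in SPCHΔ49 did not pass (adjusted p = 0.0875), while -0.64 ± 0.19 in SPCHΔ49 basl-2 against WT (adjusted p = 0.0348) and -1.14 ± 0.17 against SPCHΔ49 (adjusted p = 0.0137) did. EDE1 (AT2G44190), a microtubule protein of the spindle and phragmoplast first known from endosperm, had means of 1.74 ± 0.64 in WT, 2.79 ± 0.662 in SPCHΔ49, and 1.07 ± 0.101 in SPCHΔ49 basl-2 (SD, n = 2, 3 and 3) and fell against SPCHΔ49 with a log2 fold change of -0.86 ± 0.18 (adjusted p = 0.0426).

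Of the cytokinesis genes, 6 of 7 fell in SPCHΔ49 basl-2 against WT and 6 against SPCHΔ49. In SPCHΔ49 against WT 0 passed (0 at an unadjusted p under 0.05). All 7 had every SPCHΔ49 basl-2 library below all others. The share of all genes below both was not counted, and singly 35.5% lay wholly below WT and 15% wholly below SPCHΔ49. The summed signal of the 7 was 48.1 and 66.2 (WT), 54.9, 75.6 and 79.2 (SPCHΔ49), and 24.4, 22.7 and 31.2 (SPCHΔ49 basl-2). KNOLLE (AT1G08560), the syntaxin that fuses vesicles into the cell plate and is made only in dividing cells, read 28.05 and 40.03 (WT), 30.00, 46.3 and 46.6 (SPCHΔ49), and 13.4, 14.1 and 16.2 (SPCHΔ49 basl-2). WT and SPCHΔ49 overlapped, and the SPCHΔ49 basl-2 libraries were tightly grouped below them, with log2 fold changes of -1.16 ± 0.23 against WT (adjusted p = 0.00897) and -1.41 ± 0.21 against SPCHΔ49 (adjusted p = 0.0137). On the linear scale its mean was 2.34 times lower than in WT and 2.82 times lower than in SPCHΔ49. HINKEL (AT1G18370), a kinesin that activates the MAP kinase cascade of the expanding phragmoplast, read 5.48 and 7.66 (WT), 6.16, 9.52 and 10.5 (SPCHΔ49), and 2.17, 1.59 and 3.72 (SPCHΔ49 basl-2). It showed the same order of genotypes and fell with a log2 fold change of -1.15 ± 0.31 against WT (adjusted p = 0.0266) and -1.50 ± 0.27 against SPCHΔ49 (adjusted p = 0.0287). Its relative TETRASPORE (AT3G43210), best known from male meiosis, had means of 4.31 ± 0.608 in WT, 4.12 ± 0.262 in SPCHΔ49, and 2.96 ± 0.517 in SPCHΔ49 basl-2 (SD, n = 2, 3 and 3) and passed in no comparison.

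The phragmoplast kinesins PAKRP1 and PAKRP1L keep the opposing microtubule arrays of the phragmoplast apart. PAKRP1L (AT3G23670) read 3.96 and 5.26 (WT), 6.07, 6.51 and 7.43 (SPCHΔ49), and 1.64, 1.76 and 3.21 (SPCHΔ49 basl-2). Its 3 genotypes did not overlap, and the log2 fold changes of SPCHΔ49 basl-2 were -0.83 ± 0.23 against WT (adjusted p = 0.0281) and -1.29 ± 0.20 against SPCHΔ49 (adjusted p = 0.017). PAKRP1 (AT4G14150) was low, at means of 1.95 ± 0.221 in WT, 2.07 ± 0.379 in SPCHΔ49, and 0.908 ± 0.228 in SPCHΔ49 basl-2, with -0.63 ± 0.16 (adjusted p = 0.0195) and -0.69 ± 0.14 (adjusted p = 0.0394). POK1 (AT3G17360) and POK2 (AT3G19050) are kinesins that keep the memory of the preprophase band at the future division site. POK1 had means of 2.33 ± 0.251 in WT, 2.9 ± 0.251 in SPCHΔ49, and 1.13 ± 0.185 in SPCHΔ49 basl-2 and fell with a log2 fold change of -0.65 ± 0.13 against WT (adjusted p = 0.00867) and -0.87 ± 0.11 against SPCHΔ49 (adjusted p = 0.00971). POK2 had means of 3.35 ± 0.817 in WT, 4.44 ± 0.163 in SPCHΔ49, and 1.83 ± 0.562 in SPCHΔ49 basl-2 and fell with a log2 fold change of -0.63 ± 0.20 (adjusted p = 0.0456) and -0.96 ± 0.18 (adjusted p = 0.0287). With quantile normalization the calls of PAKRP1, POK1 and POK2 against WT were lost, at adjusted p of 0.591, 0.388 and 0.336.

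Of the 4 chromatin genes, 3 fell in SPCHΔ49 basl-2 against WT, 4 fell against SPCHΔ49 and 2 rose in SPCHΔ49 against WT. 3xHMG-box1 and 3xHMG-box2 are HMG proteins that bind condensed chromosomes during mitosis in plants. 3xHMG-box2 (AT4G23800) read 58.3 and 75.3 (WT), 109, 135 and 124 (SPCHΔ49), and 32.6, 27.8 and 43.8 (SPCHΔ49 basl-2). The genotypes lay far apart and it passed in all 3 comparisons, with log2 fold changes of 0.87 ± 0.20 in SPCHΔ49 against WT (adjusted p = 0.0196), -0.94 ± 0.20 in SPCHΔ49 basl-2 against WT (adjusted p = 0.0127) and -1.81 ± 0.18 against SPCHΔ49 (adjusted p = 0.00533). On the linear scale the mean was 3.53 times lower than in SPCHΔ49. 3xHMG-box1 (AT4G11080) read 9.59 and 12.7 (WT), 22.5, 23.1 and 17.2 (SPCHΔ49), and 10.6, 11.9 and 8.48 (SPCHΔ49 basl-2). It rose in SPCHΔ49 by 0.85 ± 0.20 (adjusted p = 0.018) and was lower in SPCHΔ49 basl-2 than in SPCHΔ49 with a log2 fold change of -0.95 ± 0.18 (adjusted p = 0.0287), but its SPCHΔ49 basl-2 libraries overlapped WT. TOPII (AT3G23890), the topoisomerase that untangles sister chromatids, read 11.6 and 14.5 (WT), 16.4, 17.7 and 17.8 (SPCHΔ49), and 5.3, 5.53 and 7.64 (SPCHΔ49 basl-2). Its 3 genotypes did not overlap, and its log2 fold changes in SPCHΔ49 basl-2 were -0.98 ± 0.17 against WT (adjusted p = 0.00486) and -1.37 ± 0.15 against SPCHΔ49 (adjusted p = 0.00615). CENH3 (AT1G01370), the histone H3 of centromeres, read 4.67 and 6.11 (WT), 4.22, 5.32 and 5.74 (SPCHΔ49), and 2.65, 2.59 and 2.3 (SPCHΔ49 basl-2), with WT and SPCHΔ49 overlapping. It fell with a log2 fold change of -0.86 ± 0.16 against WT (adjusted p = 0.00698) and -0.79 ± 0.14 against SPCHΔ49 (adjusted p = 0.0275).

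The members also moved together between libraries of the same genotype. WT replicate 2 read above WT replicate 1 for 41 of 43 members, where 51.7% of all genes did so, and the median ratio was 1.33 for the members and 1.01 for all genes. SPCHΔ49 replicate 1 was the lowest of its group for 33 members and replicate 3 the highest for 33, where 40.2% and 41.4% of all genes did so. SPCHΔ49 basl-2 replicate 3 was the highest of its group for 33 members and replicate 2 the lowest for 27, where 42.1% and 40.5% of all genes did so. What differs between these libraries is not stated in the labels. The members' median log2 fold change in SPCHΔ49 against WT was 0.14 with WT replicate 1 left out and 0.50 with WT replicate 2 left out.

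Among the 29 members with AACGG in the promoter window, 23 fell in SPCHΔ49 basl-2 against WT and 23 against SPCHΔ49. Among the 14 without it, 5 and 8 fell. In SPCHΔ49 against WT, 3 of the 29 rose and 0 fell, and 4 of the 14 rose and 1 fell. The corresponding median log2 fold changes were -0.78 and -0.65 against WT, and -1.06 and -0.85 against SPCHΔ49, so members without the core also read lower. For the 17 with at least 2 copies, 15 and 14 fell. Members without the core include CDKB2;1, CYCA2;3, CDC20.1 and POK1, which fell against SPCHΔ49. These are descriptions of a chosen set, and the shared role of the B-type cyclins and the motif cannot be told apart here.

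Some members share sequence with other genes. Taking words of 31 bases, the length the quantifier uses by default, 22 of the 44 have no word in common with another annotated gene and 11 share over 10% of theirs. Apart from the CDC20 pair, CYCB1;2 shares 19.4% with AT1G34460 and CYCB2;3 shares 19.6% with AT1G20590. AUR2 (35.3%), KNOLLE (32.0%) and 3xHMG-box1 (21.5%) share most of theirs with 1 neighbouring gene each, AT2G25890, AT1G08550 and AT4G11070. The rest are CDKB1;2 (18.0%, mostly with AT2G38630), AUR1 (18.0%, mostly with AT4G32840), 3xHMG-box2 (17.5%, with AT4G23810) and CDKB2;2 (11.9%, with AT1G20925). The signals of all 11 are uncertain to that extent. Among the 11, 8 fell in SPCHΔ49 basl-2 against WT and 9 against SPCHΔ49; among the other 32, 20 and 22 did.

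Regulators of these genes were read as a list of their own; the counts of this and the following lists stand beside the shares of all genes given above. Of 10 transcription factors of G2 and M phase and DREAM complex subunits, 3 rose in SPCHΔ49 against WT and 4 fell in SPCHΔ49 basl-2 against SPCHΔ49. SOL1 (AT3G22760), a DREAM-type CXC protein that acts in stomatal fate transitions, had mean signals of 7.56 ± 0.948 in WT, 39.5 ± 8.49 in SPCHΔ49, and 7.68 ± 1.08 in SPCHΔ49 basl-2 (SD, n = 2, 3 and 3). It rose by 2.22 ± 0.20 in SPCHΔ49 (adjusted p = 0.000309) and differed with a log2 fold change of -2.21 ± 0.18 between the overexpressors (adjusted p = 0.00296). TCX2 (AT4G14770), its relative, had means of 7.26 ± 1.21 in WT, 31.1 ± 7.52 in SPCHΔ49, and 5.64 ± 0.137 in SPCHΔ49 basl-2 and log2 fold changes of 1.94 ± 0.20 (adjusted p = 0.000612) and -2.25 ± 0.18 (adjusted p = 0.00295). MYB3R4 (AT5G11510), the activator that binds the AACGG core, had means of 3.32 ± 1.04 in WT, 4.13 ± 0.662 in SPCHΔ49, and 1.3 ± 0.436 in SPCHΔ49 basl-2. Its log2 fold changes in SPCHΔ49 basl-2 were -0.91 ± 0.23 against WT (adjusted p = 0.0204) and -1.17 ± 0.20 against SPCHΔ49 (adjusted p = 0.0241). MYB3R1 (AT4G32730) fell in SPCHΔ49 basl-2 against WT with a log2 fold change of -0.49 ± 0.11 (adjusted p = 0.0158). Against SPCHΔ49 it missed the threshold at -0.42 ± 0.10 (adjusted p = 0.06). MYB3R5 (AT5G02320), a repressor, rose against WT in both overexpressors, by 0.57 ± 0.14 in SPCHΔ49 (adjusted p = 0.0258) and 0.59 ± 0.14 in SPCHΔ49 basl-2 (adjusted p = 0.0191). It differed by 0.02 ± 0.13 between them (adjusted p = 0.945).

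Genes of neighbouring cell cycle steps are given for comparison. Of 20 genes of DNA replication and the G1/S step, 1 passed as lower in SPCHΔ49 and 7 in SPCHΔ49 basl-2, each against WT, and 2 fell between the overexpressors, with medians of -0.06, -0.54 and -0.52. TSO2 (AT3G27060), a ribonucleotide reductase subunit, fell with a log2 fold change of -1.30 ± 0.31 in SPCHΔ49 (adjusted p = 0.0215) and -2.15 ± 0.31 in SPCHΔ49 basl-2 (adjusted p = 0.00264), each against WT. CDT1A (AT2G31270), which licenses origins, and MCM5 (AT2G07690), a helicase subunit, were lower in SPCHΔ49 basl-2 than in SPCHΔ49 with a log2 fold change of -0.76 ± 0.16 (adjusted p = 0.0448) and -0.81 ± 0.16 (adjusted p = 0.0364). CDT1A also fell in SPCHΔ49 basl-2 against WT, with a log2 fold change of -0.85 ± 0.18 (adjusted p = 0.0117). Of 8 D-type cyclins, which act upstream in G1, 2 rose and 2 fell in SPCHΔ49. CYCD3;1 (AT4G34160) rose by 1.04 ± 0.16 (adjusted p = 0.00365) and CYCD3;2 (AT5G67260) by 0.89 ± 0.19 (adjusted p = 0.0145), and both were lower in SPCHΔ49 basl-2 than in SPCHΔ49, with a log2 fold change of -1.39 ± 0.14 (adjusted p = 0.00563) and -1.02 ± 0.17 (adjusted p = 0.0219). CYCD3;3 (AT3G50070) was lower than WT in both, with a log2 fold change of -0.76 ± 0.15 (adjusted p = 0.00932) and -0.84 ± 0.15 (adjusted p = 0.00537). The other D-type cyclins named by the rule were CYCD2;1 (AT2G22490) and CYCD4;1 (AT5G65420). Against WT, CYCD2;1 stood at -0.45 ± 0.11 in SPCHΔ49 (adjusted p = 0.0201) and -0.45 ± 0.11 in SPCHΔ49 basl-2 (adjusted p = 0.0173). CYCD4;1 stood at -0.57 ± 0.19 (adjusted p = 0.0623) and -0.82 ± 0.19 (adjusted p = 0.015) in the same order.

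Of 13 CDK inhibitors, 2 rose and 4 fell in SPCHΔ49, and 1 rose and 4 fell in SPCHΔ49 basl-2, against WT. KRP1 (AT2G23430) rose in both, by 0.61 ± 0.12 (adjusted p = 0.0109) and 0.61 ± 0.12 (adjusted p = 0.00919). KRP2 (AT3G50630) fell in both, with a log2 fold change of -0.57 ± 0.09 (adjusted p = 0.00515) and -0.70 ± 0.09 (adjusted p = 0.00189). KRP7 (AT1G49620) rose in SPCHΔ49 by 0.90 ± 0.13 (adjusted p = 0.00229) and was lower in SPCHΔ49 basl-2 than in SPCHΔ49 with a log2 fold change of -0.86 ± 0.11 (adjusted p = 0.00983). SMR5 (AT1G07500), an inhibitor induced by DNA damage and stress, read 5.09 and 17.1 in the WT libraries and is listed at 0 in each of the 6 overexpressor libraries. Between the overexpressors 1 inhibitor, SMR1 (AT3G10525), was higher in SPCHΔ49 basl-2 by 0.94 ± 0.16 (adjusted p = 0.0249); against WT it was lower in SPCHΔ49, at -0.65 ± 0.18 (adjusted p = 0.0368), and stood at 0.29 ± 0.18 in SPCHΔ49 basl-2 (adjusted p = 0.256). KRP7 and SMR4 (AT5G02220) were lower between the overexpressors, the latter with a log2 fold change of -1.07 ± 0.19 (adjusted p = 0.0276).

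Of 14 subunits and regulators of the anaphase-promoting complex and mitosis, 1 rose and 1 fell in SPCHΔ49, 4 fell in SPCHΔ49 basl-2 against WT and 1 fell against SPCHΔ49. Of all genes 9.9% rose and 17.3% fell in SPCHΔ49, and 21.6% and 3.36% fell in the SPCHΔ49 basl-2 comparisons. CCS52B (AT5G13840), an activator of that complex expressed around mitosis, had means of 12.7 ± 3.19 in WT, 27.6 ± 2.15 in SPCHΔ49, and 11.5 ± 0.482 in SPCHΔ49 basl-2 (SD, n = 2, 3 and 3). It rose by 1.08 ± 0.15 in SPCHΔ49 (adjusted p = 0.00245) and was lower with a log2 fold change of -1.19 ± 0.14 in SPCHΔ49 basl-2 than in SPCHΔ49 (adjusted p = 0.00683). SAMBA (AT1G32310), a plant inhibitor of the complex, fell slightly in SPCHΔ49, with a log2 fold change of -0.33 ± 0.08 (adjusted p = 0.0263). WEE1 (AT1G02970), a kinase that restrains CDKs, and APC8 (AT3G48150), a subunit, fell in SPCHΔ49 basl-2 against WT with a log2 fold change of -0.70 ± 0.17 (adjusted p = 0.0198) and -0.77 ± 0.20 (adjusted p = 0.0229).

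Of 27 other genes of mitosis and cytokinesis, 1 rose and 3 fell in SPCHΔ49, 3 rose and 13 fell in SPCHΔ49 basl-2 against WT, and 9 fell against SPCHΔ49. BUB3.1 (AT3G19590), a checkpoint protein, and the kinesin ATK1 (AT4G21270) were lower in SPCHΔ49 basl-2 than in SPCHΔ49, with a log2 fold change of -0.98 ± 0.11 (adjusted p = 0.00684) and -1.16 ± 0.15 (adjusted p = 0.00841). The condensin subunit SMC2 (AT5G62410) and NPSN11 (AT2G35190), a SNARE partner of KNOLLE, fell in SPCHΔ49 basl-2 against WT with a log2 fold change of -0.89 ± 0.14 (adjusted p = 0.00334) and -0.91 ± 0.12 (adjusted p = 0.00159). NPSN11 and the kinase MPS1 (AT1G77720) also fell in SPCHΔ49, with a log2 fold change of -0.55 ± 0.12 (adjusted p = 0.014) and -0.40 ± 0.12 (adjusted p = 0.0459). KEULE (AT1G12360) and SNAP33 (AT5G61210) are other partners of KNOLLE in membrane fusion, and also serve vesicle traffic outside division. They rose in SPCHΔ49 basl-2 against WT by 0.47 ± 0.11 (adjusted p = 0.0144) and 0.72 ± 0.16 (adjusted p = 0.0148). SNAP33 rose in SPCHΔ49 too, by 0.60 ± 0.16 (adjusted p = 0.0328). KNOLLE and its partner NPSN11 thus fell in SPCHΔ49 basl-2 against WT, while its partners KEULE and SNAP33 were higher than in WT.

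**Figure D5:**
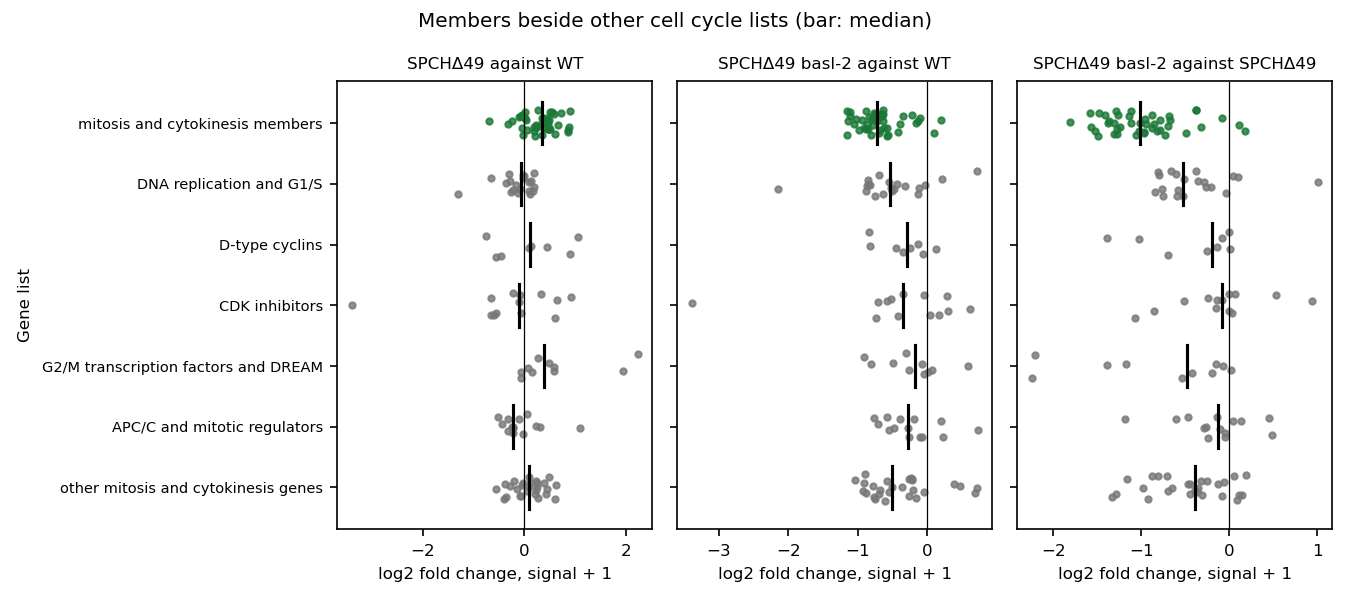
Log2 fold change of signal + 1 for the 43 listed members (green) and the genes of 6 other cell cycle lists (grey) in the 3 comparisons; each point is 1 gene and the bar is the list's median. The members' medians are 0.35, -0.73 and -1.02, and the lists overlap broadly.

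Markers of the cell types that could hold dividing cells, or whose share could shift with genotype, are given beside these results. All 11 stomatal lineage genes read above WT in SPCHΔ49 and 10 passed. In SPCHΔ49 basl-2, 5 rose against WT and 8 were lower than in SPCHΔ49. SPCH, which the transgene raises, is among the 10, the 5 and the 8. BASL, the gene affected in basl-2, is among the 10 and the 8. The summed signal of the 11 genes, which includes the transgene, was 116.8 to 127.9 in WT, 3158 to 3634 in SPCHΔ49 and 575.9 to 696.6 in SPCHΔ49 basl-2. POLAR (AT4G31805), a protein of the asymmetrically dividing cells, had means of 6.99 ± 0.866 in WT, 28.5 ± 0.526 in SPCHΔ49, and 5.59 ± 0.453 in SPCHΔ49 basl-2 and fell between the overexpressors with a log2 fold change of -2.17 ± 0.10 (adjusted p = 0.00152). TMM (AT1G80080), a receptor of the lineage, had means of 14.3 ± 0.236 in WT, 408 ± 113 in SPCHΔ49, and 55.5 ± 8.58 in SPCHΔ49 basl-2 and rose in SPCHΔ49 by 4.71 ± 0.23 (adjusted p = 2.12e-05). FAMA (AT3G24140), the factor of the last division, had means of 19.8 ± 4.84 in WT, 47.99 ± 2.36 in SPCHΔ49, and 60.6 ± 6.53 in SPCHΔ49 basl-2 and rose in SPCHΔ49 basl-2 against WT by 1.58 ± 0.16 (adjusted p = 0.000481). Of the guard cell genes, 4 of 7 rose in SPCHΔ49 and 6 in SPCHΔ49 basl-2 against WT, with sums of 51.7 to 54.7, 113.2 to 127.1 and 141.3 to 144.9. MPK12 (AT2G46070), a kinase of guard cells, rose against WT by 1.18 ± 0.09 in SPCHΔ49 (adjusted p = 0.00015) and 1.62 ± 0.09 in SPCHΔ49 basl-2 (adjusted p = 3.62e-05), and was higher in the latter by 0.44 ± 0.08 (adjusted p = 0.0315). MYB60 (AT1G08810), a guard cell transcription factor, rose in SPCHΔ49 by 1.67 ± 0.17 (adjusted p = 0.000469) and in SPCHΔ49 basl-2 by 1.58 ± 0.17 (adjusted p = 0.000616). CHX20 (AT3G53720), a cation transporter, rose in SPCHΔ49 by 1.52 ± 0.17 (adjusted p = 0.000769) and in SPCHΔ49 basl-2 by 1.80 ± 0.17 (adjusted p = 0.00035). Neither passed between the overexpressors (adjusted p = 0.783 and 0.329).

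Meristem markers could be read only in part. In the shoot meristem list 4 of 10 genes were listed, without WUS, CLV3 or the CUC genes. CLV1 (AT1G75820), a receptor of the shoot meristem, rose by 1.38 ± 0.16 in SPCHΔ49 (adjusted p = 0.00112) and 1.04 ± 0.16 in SPCHΔ49 basl-2 (adjusted p = 0.00365). KNAT1 (AT4G08150), a homeobox factor of the meristem and stem, fell with a log2 fold change of -1.12 ± 0.15 (adjusted p = 0.00212) and -1.50 ± 0.15 (adjusted p = 0.000546). Of 8 root meristem genes only SHR and SCR were listed, and SHR (AT4G37650) fell in SPCHΔ49 basl-2 against WT with a log2 fold change of -0.76 ± 0.15 (adjusted p = 0.0078). Of 5 genes of young, dividing leaves, 1 rose and 0 fell in SPCHΔ49 against WT with a median log2 fold change of -0.22, 1 fell in SPCHΔ49 basl-2 against WT (median -0.24) and 1 fell between the overexpressors (median -0.11). GRF2 (AT4G37740) rose in SPCHΔ49 by 0.66 ± 0.16 (adjusted p = 0.0199) and was lower in SPCHΔ49 basl-2 than in SPCHΔ49 with a log2 fold change of -0.90 ± 0.14 (adjusted p = 0.0166), while AN3 (AT5G28640) stood at -0.75 ± 0.25 in SPCHΔ49 against WT (adjusted p = 0.0643). ANT (AT4G37750) fell in SPCHΔ49 basl-2 against WT with a log2 fold change of -0.52 ± 0.16 (adjusted p = 0.0382). All 4 vascular genes and 3 of 4 mesophyll genes were lower than WT in both overexpressors, and 0 of either list differed between them, with 0 at an unadjusted p under 0.05. Of the vascular genes, ATHB8 (AT4G32880) stood at -0.999 ± 0.101 (adjusted p = 0.000504) and -0.85 ± 0.10 (adjusted p = 0.0011) against WT. XCP2 (AT1G20850) stood at -1.38 ± 0.19 in SPCHΔ49 (adjusted p = 0.00212), and PXY (AT5G61480) at -0.88 ± 0.12 in SPCHΔ49 basl-2 (adjusted p = 0.00217). Of the mesophyll genes, both enzymes of the Calvin cycle, SBPASE (AT3G55800) and GAPB (AT1G42970), were lower than WT, at -1.30 ± 0.15 (adjusted p = 0.000879) and -1.23 ± 0.17 (adjusted p = 0.00212) in SPCHΔ49. In SPCHΔ49 basl-2 they stood at -1.05 ± 0.15 (adjusted p = 0.00223) and -0.97 ± 0.17 (adjusted p = 0.00526). LHCB1.3 (AT1G29930), a mesophyll gene that was not lower, stood at 0.10 ± 0.41 in SPCHΔ49 (adjusted p = 0.878). In SPCHΔ49 basl-2 it stood at 0.55 ± 0.41 (adjusted p = 0.331). The summed mesophyll signal overlapped, at 46186 to 48107 in WT, 33419 to 48847 in SPCHΔ49 and 41094 to 58519 in SPCHΔ49 basl-2. The lower root and vascular markers, and the 3 lower mesophyll genes, thus stand beside both comparisons with WT. The lineage and guard cell markers stand beside all 3 comparisons. The part of any of these markers in the members' levels was not tested.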

How the data were processed

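RNA-seq signal per gene was analysed for 8 libraries of whole seedlings, 12 days old. Per the submitters' processing notes, the tools were Trimmomatic 0.38 for trimming, kallisto 0.44.0 for quantification and sleuth, whose version they leave out. The labels' protocols name a Qiagen plant kit for RNA and a TruSeq kit for libraries. The deposited signal values are named TPM by the authors, per the file headers, but their unequal totals mark a rescaling whose method is unstated, so they were handled as a signal, although the design had assumed TPM. The build, the annotation and the selection of the 18855 listed genes are not stated.

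The test was that of limma 3.58.1 (R 4.3.3), two-sided, applied to log2(signal + 1) of all 8 libraries with a mean for each genotype, an intensity trend, and adjustment over all genes. Requiring 2 libraries to reach a signal of 1 removed 0 genes. Per-library differences between the table and the single files stayed within 4.96e-06. Depth is unknown. Promoters of 300 bases were read from TAIR10.1.

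The members and gene lists were chosen with earlier results of these data known. All members are named with their levels, with fold changes where they passed or reached 0.5 on the log2 scale. Of other lists, the 2 with the lowest adjusted p per direction are named, without a fold change where a group is listed at 0. AN3, PHO1 and LHCB1.3 were added after their values were seen. Alternatives covered scaling, pseudocount, filter, variance model, replicate block, the samples in the fit and leaving out each library. The replicate numbers did not pair the libraries.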

Additional observations from a re-analysis of the deposited data

Results flagged for a closer look

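The same contrast against WT went in opposite directions in the overexpressors for 3 members, each past the threshold in both. CDKB2;1 rose in SPCHΔ49 (log2 fold change 0.66) and fell in SPCHΔ49 basl-2 (-0.65). CDC20.2 rose by 0.89 in the first and stood at -0.68 in the second. 3xHMG-box2 stood at 0.87 and -0.94. The difference between the overexpressors, in which WT cancels, was -1.31 for CDKB2;1 (limma adjusted p = 0.00928), -1.57 for CDC20.2 (adjusted p = 0.00683) and -1.81 for 3xHMG-box2 (adjusted p = 0.00533). The members were picked for calls in opposite directions against the same WT libraries, which all but fixes this difference, so these values are a description. Without WT replicate 1, the log2 fold changes in SPCHΔ49 were 0.50, 0.71 and 0.69 and no longer passed (adjusted p of 0.253, 0.145 and 0.165). Without WT replicate 2, those in SPCHΔ49 basl-2 were -0.49, -0.51 and -0.76 and no longer passed (adjusted p of 0.22, 0.222 and 0.11). The directions stayed in both cases. No group had 4 or more libraries, so no library could be tested as far from the rest of its group.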

How the results depend on the processing

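With the replicate numbers as a replicate block, the members past the threshold numbered 8 when SPCHΔ49 was set against WT, 32 with SPCHΔ49 basl-2 in its place and 34 between the overexpressors, beside 8, 28 and 31 without it, and the genes were 6446, 8045 and 1494 beside 5120, 6458 and 1020. Correlations were taken on log2(signal + 1) after each gene's mean in its genotype was subtracted. On these differences, same-numbered libraries of the overexpressors correlated at -0.17, -0.09 and 0.76, so not every library went best with its own number. The differences sum to 0 within a genotype, so a positive correlation with 1 library forces a negative one with another. Some differently numbered libraries correlated as strongly. SPCHΔ49 basl-2 replicate 2 stood at 0.77 with SPCHΔ49 replicate 1 and at -0.71 with SPCHΔ49 replicate 3. SPCHΔ49 basl-2 replicate 3 stood at -0.73 with SPCHΔ49 replicate 1. What these libraries share was not tested.

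Leaving out 1 library gave 0 to 10 members when SPCHΔ49 was set against WT, 2 to 30 with SPCHΔ49 basl-2 in its place and 4 to 29 between the overexpressors, and 1121 to 5636, 1624 to 7052 and 151 to 1242 genes. A lone WT library is then assumed to vary like the other groups. Quantile normalization gave 17 members in the first of these and 15 in the second. Testing only genes with a mean of at least 5 (24 members) gave 15 for SPCHΔ49 basl-2 against WT and, against SPCHΔ49, 17 members and 671 genes. Fitting only the 2 groups gave 17, and against SPCHΔ49 20 members and 485 genes. Rescaling without 583 genes high only in WT gave 1900 genes against SPCHΔ49. Other counts stayed within 1.5 times. Beyond fewer genes or libraries, the cause was not tested. The share of calls that were higher moved with scaling. It was 36.5% for SPCHΔ49 against WT, and 51.1% with quantile normalization, 56.1% without SPCH, organelle and abundant genes and 58.7% without genes high only in WT. It was 36.9% for SPCHΔ49 basl-2 against WT, beside 49.4% with quantile normalization and 47.0% at a mean of at least 5, and 37.9% between the overexpressors, beside 23.4% and 13.9% under the rescalings. These rescalings moved the median of all genes to 0.12 and 0.13 for SPCHΔ49 against WT and to -0.10 and -0.20 between the overexpressors, where the members' medians were then 0.47, 0.48, -1.09 and -1.16. Among single members 1 fold change turned, CYCB3;1 in SPCHΔ49 basl-2 against WT, from -0.58 to 0.13 with quantile normalization. Over all 19 settings, CKS2 passed in both basl-2 comparisons, and TOPII, CDC20.2 and 3xHMG-box2 passed against SPCHΔ49. With no counts, the precision of low signals is unknown.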
